A study of Mus musculus with 12 samples.

Results

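In hematoma-adjacent mouse brain, 6 genes of the NADPH oxidase system were followed: Cybb, Cyba, Ncf1, Ncf4 and Rac2, which encode parts of the phagocyte oxidase, and Nox4, which encodes a related catalytic subunit. They were taken by symbol, and each of the 6 had 1 row among the 21956 genes of the count table. RNA was sequenced in 12 libraries, 3 in each of 4 groups, and each library is called a mouse here. The Sham-Fabp4fl/fl group carried the floxed Fabp4 alleles and underwent the sham operation. The Sham-Fabp4CKO group also carried 1 allele of a tamoxifen-inducible Cre recombinase under control of Tmem119, a microglial gene, so that Fabp4, a fatty acid binding protein, was to be lost in microglia after tamoxifen. The ICH-Fabp4fl/fl and ICH-Fabp4CKO groups had the same genotypes and received collagenase into the right striatum, which causes an intracerebral hemorrhage (ICH), and their tissue was taken 48 h later. All 4 groups shared the floxed alleles, and the age of these mice and any tamoxifen given to the floxed controls were not given in the sources used here.

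The phagocyte oxidase transfers electrons from NADPH across a membrane to oxygen and so makes superoxide. Its membrane core, cytochrome b558, pairs the catalytic subunit gp91phox, also called NOX2 and encoded by the X-linked gene Cybb, with p22phox, encoded by Cyba. At rest the organizer p47phox (Ncf1) and p40phox (Ncf4) stay in the cytosol, and on stimulation they move to the membrane together with a Rac GTPase, Rac2 being the form found mainly in blood cells. NOX4 also needs p22phox, but it works without the cytosolic subunits, is active without a stimulus and is known from vessel wall cells, fibroblasts and kidney. In brain, the phagocyte oxidase is best known from microglia and from the monocytes, macrophages and neutrophils that enter injured tissue.

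The promoters are shown because the genes below moved together after ICH without moving by the same amount. RefSeq sequences on GRCm38.p6 were matched by symbol for 4 of the 6 genes, Cybb, Cyba, Ncf1 and Nox4, and each line gives the 200 bases before the annotated start, 5′ to 3′ on the gene's strand. The Cybb window is chrX:9469325-9469524 on the minus strand, the Cyba window chr8:122432941-122433140 on the minus strand, the Ncf1 window chr5:134229626-134229825 on the minus strand and the Nox4 window chr7:87246449-87246648 on the plus strand. Capitals mark matches, on either strand, to letters searched in every promoter: CCAAT (the CCAAT box), GGGCGG (the GC box) and GAAA followed by any 2 bases and another GAAA (a paired GAAA, as interferon response elements carry). The letters GAGGAA, a strict form of the site bound by the myeloid factor PU.1, were searched too and are not in these 4 windows. Other forms of that site and bases after the start were not searched, so a PU.1 site may still be present.
Cybb: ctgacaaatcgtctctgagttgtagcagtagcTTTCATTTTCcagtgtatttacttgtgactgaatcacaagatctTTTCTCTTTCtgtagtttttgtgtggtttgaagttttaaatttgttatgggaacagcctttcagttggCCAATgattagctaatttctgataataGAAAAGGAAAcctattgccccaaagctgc
Cyba: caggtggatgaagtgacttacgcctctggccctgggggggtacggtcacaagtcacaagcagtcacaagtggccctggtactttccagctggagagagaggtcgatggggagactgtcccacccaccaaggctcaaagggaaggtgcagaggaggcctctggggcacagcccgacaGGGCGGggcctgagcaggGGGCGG
Ncf1: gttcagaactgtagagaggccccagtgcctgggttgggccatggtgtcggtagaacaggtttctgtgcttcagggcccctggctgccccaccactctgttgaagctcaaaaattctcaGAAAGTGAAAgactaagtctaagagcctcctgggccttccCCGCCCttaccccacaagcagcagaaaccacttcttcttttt
Nox4: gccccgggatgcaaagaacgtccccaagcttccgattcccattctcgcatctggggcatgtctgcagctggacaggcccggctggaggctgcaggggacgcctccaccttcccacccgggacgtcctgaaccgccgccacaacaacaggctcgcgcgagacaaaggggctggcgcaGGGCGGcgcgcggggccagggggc
The Cybb window held 3 paired GAAA matches, beginning 168, 124 and 29 bases before the start, and a CCAAT box 56 bases before it, and it had no GC box. The Ncf1 window held a single paired GAAA, 82 bases before the start, and a GC box 42 bases before it. The Cyba window held GC boxes 24 and 6 bases before the start, and the Nox4 window held a GC box 24 bases before it, and neither had a paired GAAA. None of these matches overlapped. Over the 32851 mouse promoters in the same table, 2.27% of the 200-base windows held the paired GAAA, 29.3% the CCAAT box, 31.0% the GC box and 19.0% the letters GAGGAA. A match is only a description of these letters, and binding was not measured.

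Total counts per library ranged from 15650813 to 22406216. Fabp4 had 46, 63 and 24 reads in the ICH-Fabp4fl/fl mice, 5, 3 and 10 in the ICH-Fabp4CKO mice, 2, 1 and 2 in the Sham-Fabp4fl/fl mice and 0 in each Sham-Fabp4CKO mouse. Certain libraries stood apart. ICH-Fabp4CKO mouse 1 had 1 read in Y-linked genes, against 1302 to 2251 in the 11 others, and mitochondrial genes took 16.3% of the reads of ICH-Fabp4fl/fl mouse 1, against 7.90% to 11.9% in the others. Results are therefore given also with each library left out in turn. Levels are CPM, counts scaled to a common library total after normalizing the 12 libraries by the trimmed mean of M-values (TMM). Changes are log2 fold changes from the quasi-likelihood test of edgeR, with p-values adjusted over all genes tested by the Benjamini-Hochberg method, and a gene was called at an adjusted p under 0.05.

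All 6 genes rose after ICH in Fabp4fl/fl mice, from 5.45-fold for Nox4 to 38.0-fold for Cybb. In this comparison, 26.2% of the 14719 genes tested were called higher, and the 3 ICH mice all lay above the 3 sham mice for 34.4% of genes and for each of these 6. The median log2 fold change of the 6 genes was 4.08, against 0.02 for all genes tested. With the libraries left out in turn, 6 genes were called each time.

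The catalytic subunit of the phagocyte oxidase changed most among the 6. Cybb had 53, 9 and 13 reads in the Sham-Fabp4fl/fl mice, or 2.55, 0.493 and 0.671 CPM, and 612, 1154 and 636 reads in the ICH-Fabp4fl/fl mice, or 43.1, 71.9 and 33.8 CPM. The sham libraries were all low, mouse 1 being the highest of them, and every ICH library stood far above them. The log2 fold change was 5.25 (standard error, SE, 0.60, 95% interval 3.84 to 6.66, adjusted p = 0.000811, edgeR), which ranked 160th from the top of 14719 genes. Leaving out a library gave 4.84 to 6.30, the highest without Sham-Fabp4fl/fl mouse 1 (adjusted p = 0.00115, edgeR).

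Cyba, the partner without which gp91phox is unstable, had 6.70, 3.45 and 4.08 CPM in the sham mice and 155, 75.6 and 50.3 CPM in the ICH mice. Mouse 1 of the ICH group was the highest and mouse 3 the lowest, a spread of 3.08-fold within the group, and the groups did not overlap. The log2 fold change was 4.24 (SE 0.47, adjusted p = 0.000733, edgeR).

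Among the cytosolic subunits, Ncf1, the organizer, had 12.8, 8.05 and 8.42 CPM in the sham mice and 168, 109 and 89.2 CPM in the ICH mice. Its log2 fold change of 3.59 was the smallest of the phagocyte genes, but it was also the most precise (SE 0.30, adjusted p = 0.000352, edgeR). Ncf1 shares exon sequence with Gtf2ird2 on the opposite strand, and reads of the shared stretch cannot be told apart without strand information. Ncf4, whose product binds a phosphoinositide of the phagosome membrane, had 1.11, 0.986 and 0.465 CPM in the sham mice and 20.3, 10.8 and 9.35 CPM in the ICH mice, a log2 fold change of 3.92 (SE 0.43, adjusted p = 0.000720, edgeR). In both genes the order of the ICH mice was that of Cyba, with mouse 1 highest and mouse 3 lowest.

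Rac2, the GTPase, had 5.64, 2.85 and 1.86 CPM in the sham mice and 98.1, 66.4 and 54.0 CPM in the ICH mice, again in the order of mouse 1, mouse 2 and mouse 3. The log2 fold change was 4.35 (SE 0.43, adjusted p = 0.000517, edgeR). Nox4 was at a far lower level, with 5, 12 and 6 reads in the sham mice (0.241, 0.657 and 0.310 CPM) and 47, 35 and 26 reads in the ICH mice (3.31, 2.18 and 1.38 CPM). Its ICH libraries also lay above its sham libraries, and the log2 fold change was 2.45 (SE 0.53, 95% interval 1.21 to 3.68, adjusted p = 0.00949, edgeR).

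**Figure D1:**
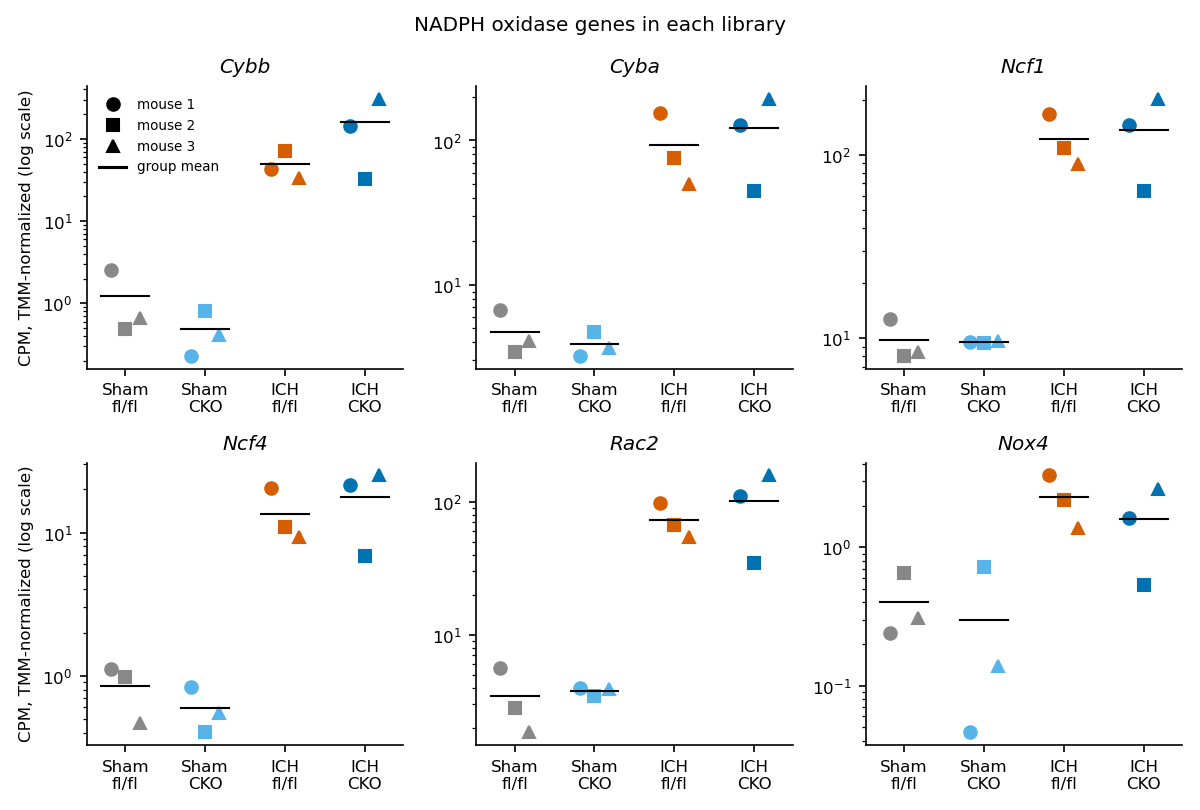
CPM of each gene (log axis) in each of the 12 libraries by group, with a marker shape for each mouse number and a line at the group mean; equal numbers in different groups are different mice. The ICH mice lie above the sham mice of their genotype for every gene except Nox4 in the CKO groups, and within ICH-Fabp4CKO mouse 2 is the lowest for all 6 genes.

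The 5 phagocyte genes, Cybb, Cyba, Ncf1, Ncf4 and Rac2, rose after ICH in Fabp4CKO mice too, where 24.5% of the 14737 genes tested were called higher. The ICH mice did not overlap the sham mice for 33.2% of all genes, with the ICH mice higher, and for these 5 genes. The median log2 fold change of the 6 genes was 4.81, against 0.01 for all genes tested. Leaving out each library in turn gave 5 or 6 genes called, the sixth being Nox4.

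Cybb had 5, 18 and 9 reads in the Sham-Fabp4CKO mice (0.231, 0.806 and 0.414 CPM) and 2199, 603 and 5614 reads in the ICH-Fabp4CKO mice (142, 32.1 and 307 CPM). The ICH mice differed by 9.55-fold among themselves, mouse 3 being the highest and mouse 2 the lowest, yet even mouse 2 was far above every sham mouse. The log2 fold change was 8.35 (SE 1.08, 95% interval 5.73 to 10.97, adjusted p = 0.00628, edgeR), the 68th highest of 14737 genes. Leaving out a library gave 7.45, without ICH mouse 3, to 8.93, without sham mouse 2.

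Cyba had 3.24, 4.74 and 3.63 CPM in the sham mice and 129, 44.4 and 194 CPM in the ICH mice, with a log2 fold change of 4.98 (SE 0.60, adjusted p = 0.00589, edgeR). Ncf1 was nearly the same in the 3 sham mice, at 9.52, 9.40 and 9.70 CPM, and had 145, 63.9 and 202 CPM in the ICH mice, with a log2 fold change of 3.85 (SE 0.44, adjusted p = 0.00549, edgeR). The ICH libraries of both genes followed the order of Cybb, with mouse 3 highest, mouse 1 next and mouse 2 lowest. Ncf4 had 0.832, 0.403 and 0.552 CPM in the sham mice and 21.5, 6.87 and 25.1 CPM in the ICH mice, with a log2 fold change of 4.89 (SE 0.61, adjusted p = 0.00599, edgeR). Rac2 had 3.98, 3.45 and 3.95 CPM in the sham mice and 109.5, 34.6 and 157 CPM in the ICH mice, with a log2 fold change of 4.73 (SE 0.59, adjusted p = 0.00599, edgeR). These ICH mice kept that order for Ncf4 and Rac2 as well.

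Nox4 had 1, 16 and 3 reads in the Sham-Fabp4CKO mice (0.0462, 0.716 and 0.138 CPM) and 25, 10 and 48 reads in the ICH-Fabp4CKO mice (1.62, 0.533 and 2.62 CPM). ICH mouse 2 lay below sham mouse 2, so the groups overlapped. The log2 fold change was 2.37 (SE 0.95, 95% interval 0.08 to 4.67, adjusted p = 0.0882, edgeR), short of the threshold. The call turned on the method and on a single mouse: DESeq2 gave an adjusted p of 0.0455 and the exact test of edgeR 0.0434, and it was 0.0382 when all 12 libraries shared a quasi-likelihood fit, and 0.0140 without ICH-Fabp4CKO mouse 2, over a range of 0.0140 to 0.237 in the 13 alternatives that gave a value. The log2 fold change itself ran from 1.77 without ICH mouse 3 to 4.01 without sham mouse 2 (adjusted p = 0.0679, edgeR).

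**Figure D2:**
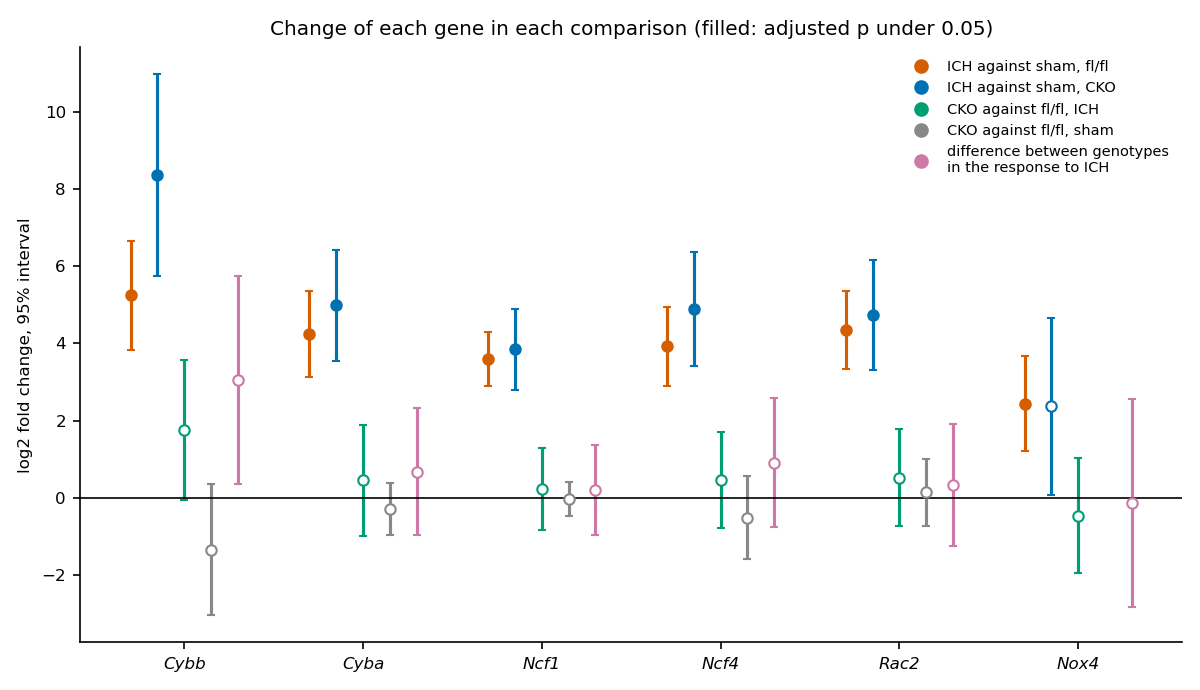
Log2 fold change of each gene (point) with its 95% interval (bar) in 5 comparisons, filled where the adjusted p was under 0.05. The ICH-against-sham changes lie between 2.37 and 8.35, whereas the intervals of the genotype comparisons include 0, apart from the Cybb difference in response of 3.06.

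No difference between the genotypes was called for any of the 6 genes after ICH, nor for any of the 14600 genes tested (0%), although 1777 genes had an unadjusted p under 0.05. DESeq2 called 259 genes higher and 324 lower in this comparison the exact test 129 and 136, and a quasi-likelihood fit shared by all 12 libraries 154 and 208, none of the 6 genes among them. All 6 overlapped between the groups, and 19.8% of all genes tested did not. The means in ICH-Fabp4CKO and ICH-Fabp4fl/fl mice were 160 ± 138 and 49.6 ± 19.9 CPM for Cybb, 122 ± 75.1 and 93.6 ± 54.6 CPM for Cyba, and 137 ± 69.4 and 122 ± 40.9 CPM for Ncf1 (SD, n = 3). They were 17.8 ± 9.64 and 13.5 ± 5.95 CPM for Ncf4, 100.5 ± 61.9 and 72.8 ± 22.7 CPM for Rac2, and 1.59 ± 1.05 and 2.29 ± 0.967 CPM for Nox4 (SD, n = 3). The spread within ICH-Fabp4CKO, from 3.16-fold for Ncf1 to 9.55-fold for Cybb between its highest and lowest mouse, exceeded the spread within ICH-Fabp4fl/fl for each of the 6 genes.

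The intervals say what sizes of difference these mice leave possible. Cybb had a log2 fold change of 1.75 (95% interval -0.06 to 3.57, adjusted p = 0.422, edgeR), which spans no change and a difference of several fold. It was 2.24 without ICH-Fabp4CKO mouse 2 (adjusted p = 0.0784) and 0.87 without ICH-Fabp4CKO mouse 3, and the adjusted p lay between 0.0784 and 1 over its 15 alternatives. The other phagocyte genes had log2 fold changes of 0.46 for Cyba (interval -0.98 to 1.90), 0.23 for Ncf1 (-0.82 to 1.29), 0.47 for Ncf4 (-0.78 to 1.71) and 0.53 for Rac2 (-0.74 to 1.80). Nox4 was the only member with a value below 0, at -0.45 (interval -1.93 to 1.02).

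The sham mice compare the genotypes without hemorrhage. Of the 5 genes that passed the filter on low counts there, none was called, against 0.111% of 14395 genes, all 16 of them lower in Fabp4CKO. At an unadjusted p under 0.05 there were 1471 genes, and DESeq2 called 11 higher and 140 lower and the exact test 9 and 142, with none of the 5 among them. Without Sham-Fabp4fl/fl mouse 3, 1531 genes were called higher and 1331 lower, and again none of the 5. That mouse had a striatal marker sum of 1825 CPM, against 593 and 673 CPM in the other mice of its group. The Sham-Fabp4CKO mice had sums of 1190.5 to 2218 CPM, so that mouse lay within their range and the others of its group below it. Whether this bears on the calls was not tested. The log2 fold changes were -1.34 for Cybb (95% interval -3.04 to 0.35), -0.28 for Cyba, -0.02 for Ncf1, -0.51 for Ncf4 and 0.15 for Rac2. The Cybb value rested on Sham-Fabp4fl/fl mouse 1, which had 53 reads against 9 and 13 in the other mice of its group, and was -0.26 without it.

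The response to ICH was compared between the genotypes in all 12 libraries, where 3 of 15089 genes (0.0199%) were called and none of the 6 was. DESeq2 called 184 higher and 83 lower, and the quasi-likelihood test without ICH-Fabp4CKO mouse 2 called 260 and 111, in both cases without any of the 6. The Cybb response was larger in Fabp4CKO mice by 3.06 on the log2 scale (SE 1.22, 95% interval 0.36 to 5.75, unadjusted p = 0.0297, adjusted p = 0.435, edgeR). It was 1.96 without Sham-Fabp4fl/fl mouse 1 and 3.55 without ICH-Fabp4CKO mouse 2 (adjusted p = 0.0629), and its adjusted p ranged from 0.0629 to 0.754 over 18 alternatives. The differences in response of the others were 0.68 for Cyba, 0.21 for Ncf1, 0.92 for Ncf4, 0.33 for Rac2 and -0.12 for Nox4, and each interval included 0. This difference, the ICH comparisons and the sham comparison use the same libraries, so they are not separate evidence.

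To set the genes beside each other, CPM was divided by the length of the gene's merged exons in kb. In Sham-Fabp4fl/fl mice the length-scaled level was 4.56 CPM per kb for Cyba, 2.67 for Ncf1, 1.11 for Rac2, 0.422 for Ncf4, 0.213 for Cybb and 0.0475 for Nox4. Cyba overlapped Ncf1 and Ncf4 overlapped Cybb between mice, and the other neighbours in this order did not overlap. The order was the same in Sham-Fabp4CKO mice, at 3.73, 2.60, 1.22, 0.295, 0.0832 and 0.0354 CPM per kb, where only Cybb and Nox4 overlapped. Cybb, the catalytic subunit, was thus the lowest of the phagocyte genes in both sham groups, by the means. In ICH-Fabp4fl/fl mice the order was Cyba at 90.1, Ncf1 at 33.2, Rac2 at 23.5, Cybb at 8.54, Ncf4 at 6.69 and Nox4 at 0.270 CPM per kb, with overlap between Ncf1 and Rac2 and between Cybb and Ncf4. In ICH-Fabp4CKO mice it was 118, 37.4, 32.4, 27.6, 8.82 and 0.188 CPM per kb for the same genes in the same order, and every pair of neighbours overlapped except Ncf4 and Nox4.

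Another Rac GTPase was read on the same scale. Rac1, the GTPase found in nearly all cells, had 85.2, 89.5, 108 and 108 CPM per kb in Sham-Fabp4fl/fl, Sham-Fabp4CKO, ICH-Fabp4fl/fl and ICH-Fabp4CKO mice. It exceeded Rac2 in every group, but all 12 of its values were not whole numbers, so some of its reads were shared with other genes.

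**Figure D3:**
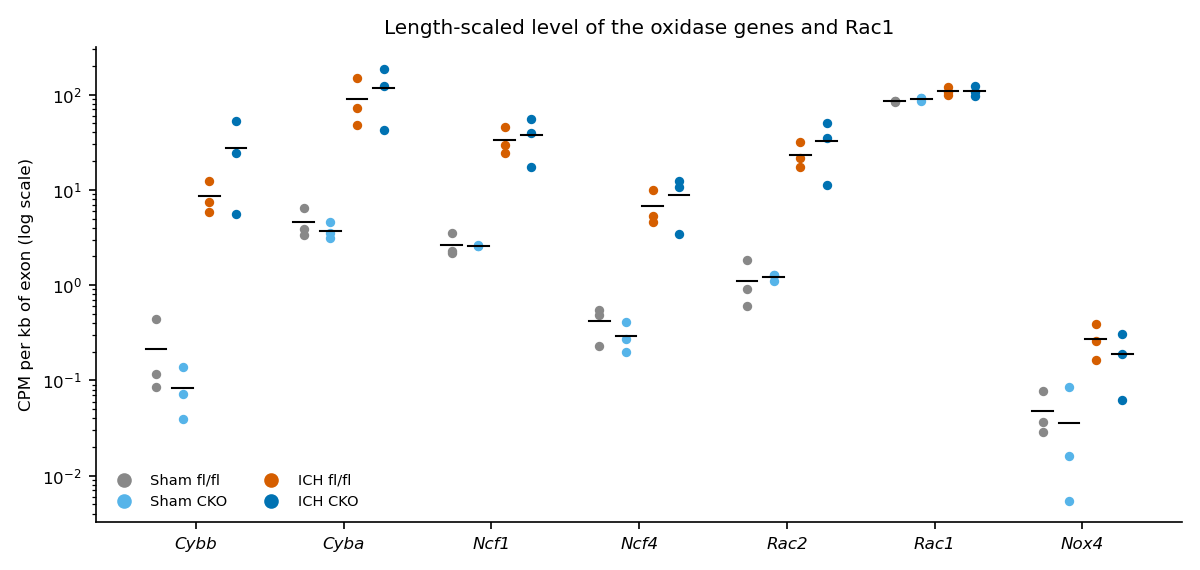
Length-scaled level (CPM per kb of exon, log axis) of the 6 genes and Rac1 in each mouse, coloured by group, with a line at each group mean. Rac1 stays between 84.1 and 122 CPM per kb in all mice, while Cyba rises from single digits to means of 90.1 and 118.

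The stoichiometry of the transcripts moved because the genes rose by different amounts. The log2 ratio of Cyba to Cybb reads within a library was 1.39, 2.81 and 2.60 in the Sham-Fabp4fl/fl mice and 1.85, 0.07 and 0.57 in the ICH-Fabp4fl/fl mice. In the Sham-Fabp4CKO mice it was 3.81, 2.56 and 3.13, and in the ICH-Fabp4CKO mice -0.14, 0.47 and -0.66. By the group means the read numbers of both genes were nearer to each other after ICH, and the floxed groups overlapped while the CKO groups did not. The mean log2 ratio to Cybb went from 3.34 to 1.32 for Ncf1, from -0.24 to -1.89 for Ncf4, from 1.71 to 0.58 for Rac2 and from -1.37 to -4.45 for Nox4 between the floxed groups. It went from 4.49 to 0.14, from 0.42 to -2.85, from 3.15 to -0.41 and from -1.36 to -6.41 for the same genes between the CKO groups. A fall of this ratio without overlap was the rule rather than a feature of these genes: it was found for 96.6% of all genes in the floxed groups, where Ncf1 and Nox4 showed it, and for 98.2% in the CKO groups, where all 5 did. Between the ICH groups, only Nox4 of the 5 was lower without overlap relative to Cybb in Fabp4CKO, against 7.32% of all genes.

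**Figure D4:**
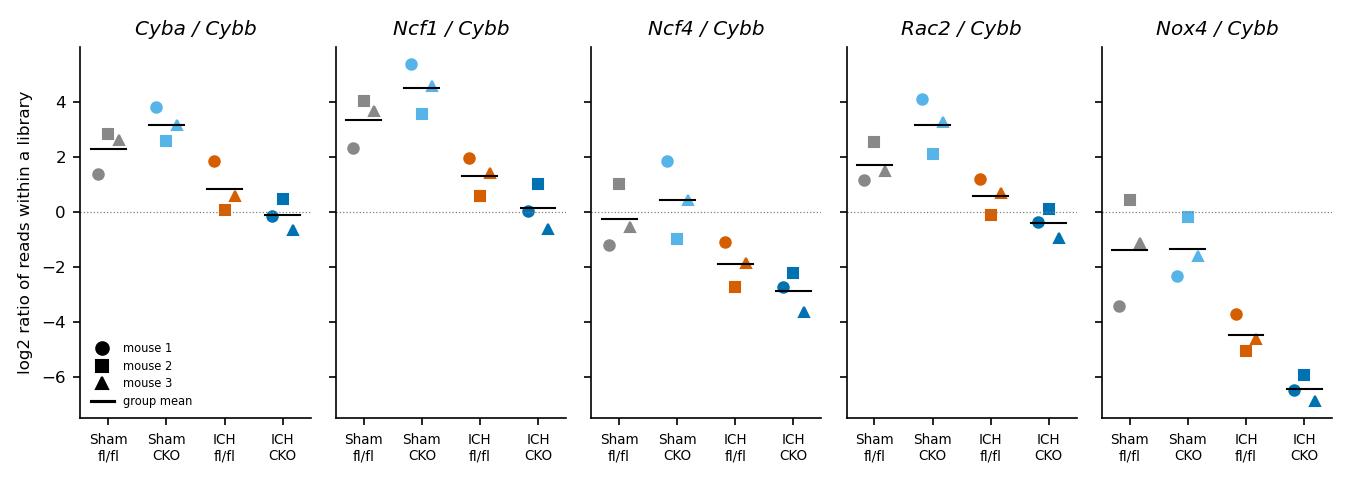
Log2 ratio of the reads of each gene to those of Cybb in the same library, by group, with a marker shape for each mouse number and a line at the group mean; 0 means equal read numbers. The ratios are lower in the ICH groups, and Nox4 against Cybb reaches a mean of -6.41 in ICH-Fabp4CKO mice.

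Profiles were compared over the 12 libraries as log2 CPM centred on each gene's mean, by the root mean square difference, for 15076 genes. The 5 genes closest to Cybb were Lyz2, the lysozyme of myeloid cells, at 0.44, and Slamf7, Cd300lb, Cd200r4 and Pira2, which encode receptors of the leukocyte surface, at 0.51 to 0.54. Lyz2 had means of 23.4 and 9.76 CPM in the Sham-Fabp4fl/fl and Sham-Fabp4CKO mice, and 1060 and 4400 CPM in the corresponding ICH groups. The members themselves were further from Cybb, Cyba ranking 172nd, Rac2 200th, Ncf4 277th, Ncf1 419th and Nox4 1310th. The 5 genes closest to Nox4 were Pole2, Mcm2 and Pola1, of DNA replication, with Ccnf, a cyclin-family F-box gene, and Gstm2, a glutathione transferase, at 0.40 to 0.51. Among the other members, Ncf1 stood nearest to Nox4, at rank 2375, and Cybb was at rank 14642. The root mean square difference counts the size of a change as well as its direction, so a far rank does not mean an opposite profile. Cybb and Nox4 both rose after ICH in floxed mice, by log2 fold changes of 5.25 and 2.45. With genes held to a mean of at least 10 CPM, 2 of the 5 genes named for Cybb and 1 of the 5 named for Nox4 remained.

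The rest of the oxidase family was mostly absent. Of 10 further family genes, 3 passed the filter in the floxed comparison and 4 in the CKO comparison. Cybc1, the chaperone of cytochrome b558, rose in both, by log2 fold changes of 0.82 (adjusted p = 0.00520) and 1.45 (adjusted p = 0.0145), both by edgeR's test. In Fabp4CKO mice the Cybc1 call was lost when sham mouse 1, 2 or 3 or ICH mouse 1 was left out (adjusted p 0.0616 to 0.0689, edgeR). Rac1 and Noxo1, the organizer of other oxidases, were not called in either, with 0.30 and 1.26 in floxed mice and 0.28 and 0.79 in Fabp4CKO mice. Duox2, a dual oxidase of epithelia, fell by 3.21 on the log2 scale in Fabp4CKO mice (adjusted p = 0.0246, edgeR), from 22, 24 and 15 reads to 1, 4 and 0, and this call was lost when sham mouse 1, 2 or 3 or ICH mouse 1 was left out (adjusted p 0.0744 to 0.0930) and with all 12 libraries in a shared fit (0.0505). It was -4.69 without ICH mouse 2. In the floxed groups Duox2 had 1, 0 and 19 reads in the sham mice and 4, 1 and 2 in the ICH mice and was not tested. Nox3 and Duoxa2 had no read in any library, and Nox1, Noxa1, Duox1 and Duoxa1 had at most 7 reads in a library.

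Signalling genes that lead to oxidase activation, such as Rac exchange factors, protein kinases C and the leukocyte PI3K, were read from a list of 18, all of which were tested. In floxed mice 10 rose, 1 fell and 7 were not called, with a median log2 fold change of 0.85, where 26.2% of all genes were called higher and 19.3% lower and the median of all genes was 0.02. The largest were Vav1 at 3.41, Dock2 at 3.34, both Rac exchange factors, Pik3r5 at 3.33, a PI3K subunit, and Arhgdib at 3.19, a GDP-dissociation inhibitor of blood cells. Pak1, a kinase that Rac activates, fell by 1.16 on the log2 scale, and Prkcb and Akt1 were not called, at -1.29 and 0.36. Prkcb passed in 8 of the alternatives, including DESeq2 and without ICH-Fabp4fl/fl mouse 3, and the genes called lower numbered up to 5 with DESeq2. In Fabp4CKO mice 12 rose, 1 fell and 5 were not called, with a median of 0.96, where 24.5% of all genes were called higher and 11.1% lower and the median of all genes was 0.01. The list was led by Dock2 at 4.66, Vav1 at 4.45, Pik3r5 at 4.15 and Hvcn1, the voltage-gated proton channel that balances the charge the oxidase moves, at 3.97. Prkcb, encoding a protein kinase C that phosphorylates p47phox, fell by 1.11, and Pak1 and Clcn3 were not called, at -0.82 and -0.37. The Prkcb call was lost when sham mouse 1, 2 or 3 or ICH mouse 1 was left out (adjusted p 0.0616 to 0.0771, edgeR). Without ICH mouse 2, Pak1 (-1.28) and Clcn3 (-0.57) were called, and the genes called lower numbered 0 to 3 as libraries were left out. Over all genes, the number called lower then ran from 50 of 14943 without sham mouse 3 to 4896 of 14963 without ICH mouse 2. Dock2 was 4.07 without ICH mouse 3. The number called higher in Fabp4CKO mice was 6, 5 and 4 without sham mouse 1, 2 and 3, 7 without ICH mouse 1 and at most 15 without another ICH mouse. Calls over all genes fell in the same runs. Without sham mouse 1, 2 and 3, 796 of 14956, 767 of 14988 and 701 of 14943 genes were called higher. It was 1435 of 14901 without ICH mouse 1, against 3605 of 14737 with all libraries.

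Genes that dispose of superoxide and hydrogen peroxide changed less. Of 5 listed, 4 were tested, and Mpo, the neutrophil enzyme that uses hydrogen peroxide, was not. Sod3, the extracellular superoxide dismutase, rose by 1.83 in floxed mice (adjusted p = 0.000429) and 2.25 in Fabp4CKO mice (adjusted p = 0.00478, edgeR). Cat, the catalase, rose by 0.62 and 0.82, and Sod2, the mitochondrial dismutase, fell by 0.60 and 0.72, with adjusted p-values of 0.0286, 0.0337, 0.0322 and 0.0347 (edgeR). The Cat and Sod2 calls were lost in floxed mice when sham mouse 1, 2 or 3 or ICH mouse 1 or 2 was left out, and in Fabp4CKO mice when sham mouse 1, 2 or 3 or ICH mouse 1 was, the Cat call also without ICH mouse 3. Sod1, the cytosolic dismutase, was not called, at 0.13 and -0.16.

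Transcription factors known from the promoters of the phagocyte oxidase genes rose together. Of 12 listed, 9 were tested and all 9 rose in both genotypes, with medians of 2.66 and 2.97, against 0.02 and 0.01 for all genes tested. Among all genes tested, 26.2% were called higher in floxed mice and 24.5% in Fabp4CKO mice. In floxed mice the largest were Spi1 (PU.1) at 3.75, Runx1 at 3.68, Irf8 at 3.33 and Cebpb at 3.21 (2.52 without ICH mouse 1), and in Fabp4CKO mice Runx1 at 5.64, Spi1 at 4.27, Irf8 at 4.12 and Cebpa at 3.70. Leaving out a library left 9 called in floxed mice and 7 to 9 in Fabp4CKO mice. Over all genes, the number called higher was then 2633 to 4309 in floxed and 701 to 5203 in Fabp4CKO mice. Cebpe, Hoxa9 and Hoxa10 were too low to test. Between the ICH groups none of the genes tested in these 4 lists was called.

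Cell type markers moved with the oxidase genes. In bulk tissue, fewer cells of a type and less RNA per cell cannot be told apart, nor can more of either. The calls below stand beside 26.2% of all genes called higher after ICH in floxed mice and 24.5% in Fabp4CKO mice. The summed level of 8 monocyte and macrophage markers was 65.8 to 119 CPM in Sham-Fabp4fl/fl, 59.7 to 62.0 in Sham-Fabp4CKO, 1113 to 2870 in ICH-Fabp4fl/fl and 1265 to 10398 in ICH-Fabp4CKO mice, and all 8 rose in both genotypes. Lyz2 and Fn1, the fibronectin gene, carried 94.1% to 97.8% of this sum in the ICH mice. Lyz2 had means of 4400 and 1060 CPM in ICH-Fabp4CKO and ICH-Fabp4fl/fl mice and Fn1 1406 and 947 CPM, against 29.7 and 22.7 CPM for Ccr2 and 11.4 and 11.2 CPM for Ly6c2. The other 6 markers, a sum formed after the values were seen, came to 48.03 to 138 CPM in ICH-Fabp4fl/fl and 58.0 to 246 CPM in ICH-Fabp4CKO mice. In the Sham-Fabp4CKO mice Ccr2, Ly6c2, Chil3, Ms4a7 and F10 had at most 3 reads in each library. The sum of 7 microglial markers, such as P2ry12 and Tmem119, was 289 to 360, 291 to 328, 1210 to 1457 and 1230 to 3826 CPM in the same groups, with 6 of the 7 called higher in both genotypes. The 5 markers of all myeloid cells summed to 152 to 193, 147 to 180, 1055 to 1445 and 952 to 3669 CPM, and all 5 rose in both. Neutrophil markers, 10 listed, summed to 6.63 to 13.4, 5.27 to 9.98, 53.6 to 96.9 and 74.2 to 365 CPM. Of those tested, 5 of 6 were called in floxed and 6 of 8 in Fabp4CKO mice. Ly6g had at most 3 reads in each library of the first 3 groups. In ICH-Fabp4fl/fl mice Csf3r and Mmp8 had the highest means of this list, 37.4 and 21.3 CPM. S100a9, Cxcr2 and S100a8 had 4.78, 2.68 and 2.53 CPM there, and Ngp, Ltf, Retnlg and Camp 0.829, 0.451, 0.376 and 0.352 CPM. Csf3r was also the highest in Sham-Fabp4fl/fl mice, at 6.96 CPM, where Ngp had 0.918 CPM.

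Within ICH-Fabp4CKO, the mice that were high and low for the oxidase genes were also high and low for these lists. The monocyte and macrophage sum was 6289, 1265 and 10398 CPM in mice 1, 2 and 3, and the microglial sum was 2488, 1230 and 3826 CPM, the order of Cybb, Cyba, Ncf1, Ncf4 and Rac2. ICH-Fabp4CKO mouse 2 was the lowest ICH mouse for all 6 genes, and mouse 3 the highest for 5. Nox4 was highest in ICH-Fabp4fl/fl mouse 1, the mouse with the highest mural and endothelial sums (703 and 912 CPM). That mouse was also the highest of its group for the microglial, monocyte and macrophage, neutrophil, fibroblast and oligodendrocyte sums. ICH-Fabp4CKO mouse 3 was next for Nox4 (2.62 CPM), with mural and endothelial sums of 452 and 253 CPM. ICH-Fabp4fl/fl mouse 2 had less Nox4 (2.18 CPM) and sums of 467 and 602 CPM. The mural and endothelial sums were 398 to 703 and 410 to 912 CPM in ICH-Fabp4fl/fl against 246 to 452 and 219 to 308 CPM in ICH-Fabp4CKO mice. Fibroblast markers summed to 765, 59.1 and 1480 CPM in ICH-Fabp4CKO mice 1, 2 and 3, and to 76.7 to 290 CPM in ICH-Fabp4fl/fl mice. Most of this lay in the collagen genes Col1a1 and Col1a2, with means of 340 and 347 CPM against 44.7 and 57.0 CPM. Dcn had 58.2 against 63.6 CPM and Lum 22.3 against 14.3 CPM in the same groups. The part of these cell types in the levels of the oxidase genes was not tested.

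**Figure D5:**
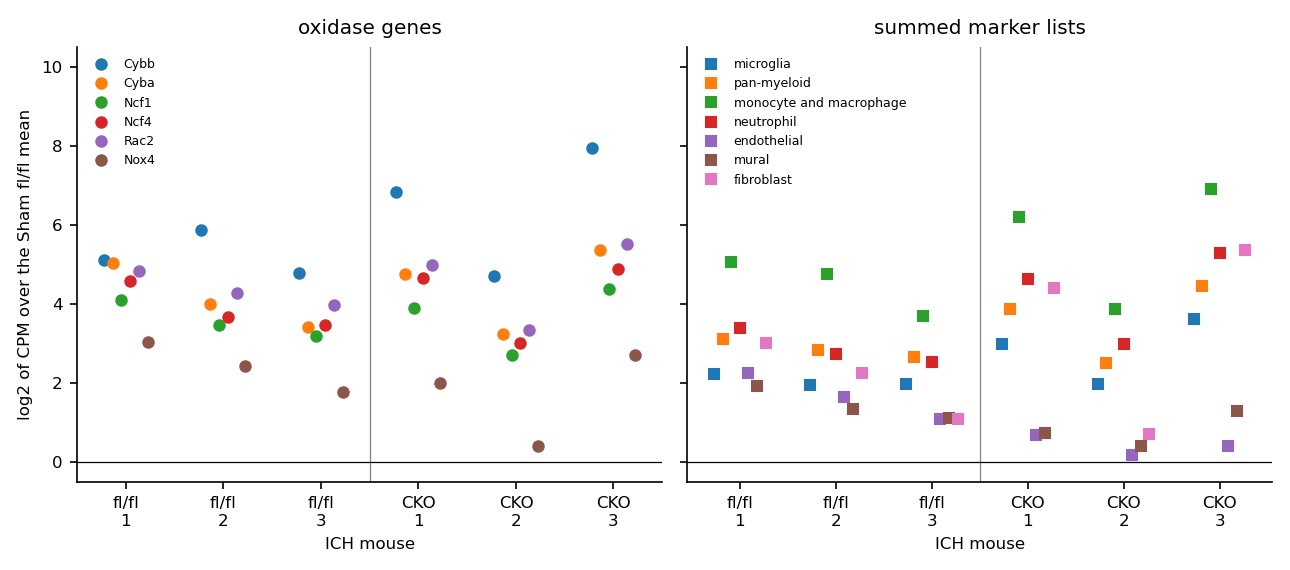
Level in each of the 6 ICH mice as log2 of CPM over the Sham-Fabp4fl/fl mean, for the 6 oxidase genes on the left and for the summed CPM of 7 marker lists on the right, with points offset sideways within a mouse. ICH-Fabp4CKO mouse 2 is the lowest mouse for all 6 genes, and the monocyte and macrophage sum spans 1265 to 10398 CPM in that group.

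Other tissue markers were read for the makeup of the samples. After ICH, 26.2% of all genes were called higher and 19.3% lower in floxed mice, and 24.5% and 11.1% in Fabp4CKO mice. Neuronal markers summed to 3073 to 4209 and 3263 to 3443 CPM in the sham groups and 904 to 2301 and 911 to 2994 CPM in the ICH groups, floxed mice first, with 4 of 5 called lower in floxed and none in Fabp4CKO mice. The striatal genes Drd1, Drd2 and Ppp1r1b were present in every library, summing to 459 to 2218 CPM, and none was called. Endothelial, mural and fibroblast markers were called higher for 5 of 5, 6 of 6 and 4 of 4 in floxed mice and for 2 of 5, 5 of 6 and 4 of 4 in Fabp4CKO mice. Astrocyte markers were called higher for 3 of 4 in both, T and NK cell markers for 3 of 4 and 2 of 3 tested, and red cell markers for 2 of 3 in floxed and none in Fabp4CKO mice. Oligodendrocyte markers were called in neither, and B cell markers were too low to test.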

How the data were processed

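Poly(A) RNA of hematoma-adjacent brain tissue was sequenced in 12 libraries, on an Illumina NovaSeq with a kit that is not stated to keep the strand. The authors deposited expected counts, estimated read counts per gene without normalization, and between 7.36% and 8.69% of a library's genes had a fractional count. The submitters' processing notes name Bowtie2 2.2.8, HISAT2, StringTie 1.3.1 and DESeq2, and the genome build was not given in the sources used here. Ncf1 overlaps exons of Gtf2ird2 on the other strand in GENCODE M21, and 83 genes had no symbol.

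Counts were rounded to whole numbers and tested by edgeR 4.0.16 under R 4.3.3 (TMM, filterByExpr set to min.count 10 and min.total.count 15, quasi-likelihood F-test, Benjamini-Hochberg adjustment over all genes tested, threshold 0.05), on the libraries of both groups compared, and on all 12 for the difference in response. Exon lengths came from GENCODE M21, matched by Ensembl identifier for 21804 of 21956 genes. The test was checked on simulated data. Libraries were grouped by their labels and treated as separate mice, and none was a copy of another. The sources used here do not state that the libraries of a group came from separate mice, so p-values measure only the spread between them, which may be technical. Totals limit precision for genes with few reads, and intervals over 3 mice include the spread between mice. The genes and lists were chosen with earlier results of these data known. Genes named are the 6 oxidase genes, Fabp4, the 5 nearest profiles, and from each list up to 4 of the largest called changes and 2 of the most abundant genes not called. Others, such as Pak1 and Prkcb as the only genes called lower in their list, were named after their values were seen. Settings tried as alternatives were RLE or no scaling in place of TMM, no filter or 10 counts required in all libraries, DESeq2 1.42.0 or the exact test as the method, a block for the mouse number, all 12 libraries together, a prior count of 2 for ratios, a minimum mean of 10 CPM for profiles, and each library left out. After seeing the data, a run without both ICH libraries numbered 1 was added. Ratios used the rounded counts as they stood. A further gene of the oxidase family list is not reported here, and the counts of that list leave it out.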

Additional observations from a re-analysis of the deposited data

How the results depend on the processing

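Every library left out, every normalization and filter, DESeq2 and the exact test kept the direction of all 6 oxidase genes in both comparisons of ICH with sham, and the 5 phagocyte genes stayed called wherever they were tested. In Fabp4CKO mice this held narrowly, the highest adjusted p of these 5 genes running from 0.0457 for Ncf1 to 0.0493 for Cybb (edgeR). The smallest adjusted p of any gene in that comparison was 0.0439, 0.0439 and 0.0446 without sham mouse 1, 2 and 3 (edgeR). With at least 10 counts required in every library, 3 genes were called in each of these comparisons, since Cybb, Ncf4 and Nox4 then fell out of the test. Leaving out libraries gave 6 called genes in floxed and 5 to 6 in Fabp4CKO mice. Uncalled values changed sign. Between the ICH groups, leaving out a library gave log2 fold changes of -0.04 to 1.00 for Cyba and -0.16 to 0.58 for Ncf1, and between the sham groups -0.46 to 0.04 for Cyba, -0.14 to 0.21 for Ncf1 and -0.15 to 0.69 for Rac2. The difference in response ranged from -0.18 to 0.55 for Ncf1, -0.22 to 0.75 for Rac2 and -0.70 to 1.52 for Nox4, and was 0.26 for Nox4 without both ICH libraries numbered 1. Sod1 ranged from -0.05 to 0.23 in floxed mice. The cause of these sign changes was not tested.

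The labels give same-numbered mice nothing in common but the number, and their deviations correlated at -0.576 to 0.312 over the 4 comparisons. With 3 mice a group, these correlations cannot tell whether such mice were paired. With the replicate number as a block, 6, 5, 0 and 0 oxidase genes were called for ICH in floxed mice, ICH in Fabp4CKO mice, the ICH groups and the sham groups, as without it. The block gave 0.01 for Ncf1 between the sham groups and 0.01 for the Nox4 difference in response. Over all genes, the block called 2579 higher and 1105 lower in Fabp4CKO mice after ICH, against 3605 and 1642 without it, and leaving out a library gave 701 to 5203 higher, fewest without sham mouse 3 and most without ICH mouse 2. Nox4 had at most 48 reads in a library, with 3 mice a group.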
